A study of Mus musculus with 13 samples.

Results

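Expression of 49 interferon-stimulated genes was examined in T cells sorted from subcutaneous tumors. The tumors were B16-F10, which is a melanoma line of the mouse, and the hosts were Foxp3-EGFP-DTR mice. The genes were picked by symbol from a list of known interferon targets, by a rule that uses no measured value. The list was chosen with earlier results of these data known. All 49 were found among the 12963 genes of the table. Every mouse carried the Foxp3-EGFP-DTR allele, in which the endogenous Foxp3 gene drives a green fluorescent protein together with the receptor for diphtheria toxin. Diphtheria toxin (DTx) therefore removes Foxp3-expressing regulatory T (Treg) cells, whereas saline (PBS) leaves them in place. Adult mice were used, and all were of this genotype and bore tumors. The 13 libraries formed 5 groups. CD4 PBS (n = 2) and CD4 DTx (n = 3) were conventional CD4 T (Tconv) cells of mice given saline or toxin. CD8 PBS (n = 2) and CD8 DTx (n = 3) were the matching CD8 T cells, and Treg PBS (n = 3) were the Treg cells of saline-treated mice. The study calls its replicates biological and took them on separate days, but the labels tie libraries neither to animals nor to days, so the p-values measure the spread between these libraries. Here CD4 PBS and CD8 PBS hold the replicate numbers 2 and 3. Values below are listed in the order of replicate numbers 2 and 3 for those groups and 1, 2 and 3 for the others. The comparisons address how Tconv cells of a tumor change their transcription when Treg cells are removed, and how they then stand against Treg cells.

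Interferons are secreted proteins that warn cells of infection. Type I interferons bind a receptor made of IFNAR1 and IFNAR2 and activate a complex that contains STAT2 and IRF9 and binds interferon-stimulated response elements (ISRE) in promoters. Interferon gamma, which is made by T cells and NK cells, binds a receptor of IFNGR1 and IFNGR2 and acts through gamma-activated sites (GAS) in promoters, and it also induces IRF1, which reads ISRE-type sequences. Many targets respond to both kinds of interferon. The GTPases of the guanylate-binding and immunity-related families, which act on the membranes around intracellular pathogens, are known for their strong response to interferon gamma. In tumors, interferon gamma from T cells can induce these genes. Which interferon acted in these samples was not tested.

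The promoters of members from the families that the results turn on are shown first, as windows of 60 bases that hold an ISRE match. Sequences and start sites are those of RefSeq on the GRCm38.p6 build, which is not the build used for read alignment, and they are written 5′ to 3′ on the gene's strand. Capitals mark the match nearest the start to GAAANNGAAA or its reverse complement TTTCNNTTTC. Further matches, as in the windows of Gbp3 and Isg15, are not capitalized. All windows lie upstream of the annotated transcription start of their gene, within its promoter. The first 4 belong to GTPases, Isg15 and Ifit3 are classical type I targets, and the last 2 are members of the OAS family that behaved differently from each other.
Gbp2 (chr3:142620579-142620638, + strand): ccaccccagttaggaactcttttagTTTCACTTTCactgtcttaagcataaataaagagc
Gbp3 (chr3:142559980-142560039, + strand): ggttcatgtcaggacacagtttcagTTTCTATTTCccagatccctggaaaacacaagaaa
Igtp (chr11:58199496-58199555, + strand): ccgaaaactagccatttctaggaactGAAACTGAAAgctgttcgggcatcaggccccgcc
Irgm2 (chr11:58214888-58214947, + strand): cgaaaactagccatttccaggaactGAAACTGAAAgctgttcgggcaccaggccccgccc
Isg15 (chr4:156200850-156200909, - strand): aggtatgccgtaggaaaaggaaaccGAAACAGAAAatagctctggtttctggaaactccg
Ifit3 (chr19:34583382-34583441, + strand): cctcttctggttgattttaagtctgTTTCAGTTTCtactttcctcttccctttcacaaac
Oas1a (chr5:120907526-120907585, - strand): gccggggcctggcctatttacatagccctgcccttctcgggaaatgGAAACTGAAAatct
Oas3 (chr5:120777700-120777759, - strand): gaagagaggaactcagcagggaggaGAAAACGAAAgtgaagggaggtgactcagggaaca

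Of the 36 members with a promoter in the RefSeq table, 13 (36.1%) held an ISRE match within 250 bases upstream of the start on either strand, against 3.34% of the 9390 genes tested here that had a promoter and 3.46% of all 27025 genes of that table. A match to TTCNNNGAA, the GAS core, was found in 8 of the 36 (22.2%), against 7.33% and 8.13%. The ISRE letters were present in 5 of the 6 GTPases with a promoter, in 5 of 15 classical effectors and in 0 of 5 nucleic acid sensors. Igtp and Irgm2 are neighbouring genes on chromosome 11. A match describes the letters and is not evidence of binding.

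Each library held from 15947556 to 34140486 recovered reads, and all 49 members passed the filter on low values, of at least 10 normalized reads in 2 libraries, as did 12667 genes in all. Levels are given in normalized reads, which are read counts divided by a library factor and are not corrected for gene length, so they are compared between groups and not between genes. Cd4, Cd8a and Foxp3 followed the labels, with Foxp3 at 12.1 or below in every Tconv library and between 1178 and 1896 in Treg cells. Some signal of the other lineage was read after DTx. Cd8a was at 103, 711 and 1302 in CD4 DTx, against 31.4 and 26.4 in CD4 PBS and at least 23475 in the CD8 groups. Cd4 was at 413, 0 and 40.4 in CD8 DTx, against 2.43 and 0 in CD8 PBS. Markers of other cell types were also read in the sorted populations. The summed level of 10 macrophage and monocyte markers ran from 1388 to 1572 in CD4 PBS, from 139 to 2288 in CD4 DTx, from 694 to 2256 in CD8 PBS, from 1859.7 to 2760.1 in CD8 DTx and from 1195 to 4143 in Treg PBS. In CD8 DTx, Itgam and Cd68 made up most of it, with means of 1224 and 899 against 109 and 199 in CD8 PBS. Adgre1 was also higher there (33.5 against 10.3). Lyz2 was lower (148 against 909), as were the means of Csf1r, C1qa, C1qb, C1qc and Ms4a7. The sum of 5 dendritic cell markers was higher after DTx without overlap, through Xcr1 alone. It ran from 57.5 to 223 in CD4 PBS, from 381 to 632 in CD4 DTx, from 196 to 371 in CD8 PBS, from 615 to 693 in CD8 DTx and from 542 to 973 in Treg PBS. In the DTx groups Xcr1 made up most of that sum. Siglech, Flt3 and Zbtb46 had lower means after DTx in both cell types. Clec9a, a defining marker of the cells that carry Xcr1, was 0 in all 13 libraries. Mki67 and Top2a, which mark dividing cells, summed to 407 and 794 in the CD4 PBS libraries, 3022 to 5149 after DTx, 563 and 2323 in those of CD8 PBS, 4931 to 13361 after DTx and 7393 to 16072 in Treg cells. Melanocyte markers, of which 4 genes were in the table, ran from 435 to 448 in CD4 PBS, from 89.0 to 170 in CD4 DTx, from 171 to 629 in CD8 PBS, from 60.7 to 125 in CD8 DTx and from 727 to 1197 in Treg PBS, so they were lower after DTx without overlap. The NK markers Ncr1 and Klrb1c summed to between 45.6 and 534 in the CD4 groups, between 243 and 5111 in the CD8 groups and to 16.9 or less in Treg cells, and 4 B cell markers to between 92.6 and 1296 over all libraries. The part of these differences in cell content in the results below was not tested. In bulk samples, fewer cells of a type and less RNA per cell cannot be told apart.

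The libraries numbered 1 stood apart in these genes, and the PBS-treated Tconv groups held no such library. Of the 49 members, 32 (65.3%) were highest in replicate 1 of CD4 DTx, 29 (59.2%) in replicate 1 of CD8 DTx and 40 (81.6%) in replicate 1 of Treg PBS, against 39.6%, 31.3% and 34.0% of all genes tested. In all 3 groups at once, 22 members (44.9%) were highest in replicate 1, against 11.5% of genes. The median centred level of the members, on the log2 scale, was 0.57 in replicate 1 of CD4 DTx against 0.21 and 0.12 in replicates 2 and 3. For CD8 DTx it was 0.38 against -0.046 and 0.16, and for Treg PBS 0.47 against -0.22 and -0.11. CD4 PBS stood at -0.45 and -0.059, and CD8 PBS at -0.36 and 0.035. The 19 classical effectors showed the same order, with medians of 0.84, 0.80 and 0.66 in the replicates numbered 1 and no more than 0.16 elsewhere. In replicate 1 of CD4 DTx the macrophage sum was the lowest of all libraries, at 139, while in replicate 1 of Treg PBS it was the highest, at 4143. The libraries numbered 3 held no Xist reads and between 2598 and 4026 normalized reads of Ddx3y, a Y-linked gene, while those numbered 1 and 2 held no Ddx3y, so sex-linked genes also followed the replicate number. Counts of members called at adjusted p under 0.05 are therefore also given without the libraries numbered 1, while counts by a 4-fold limit, by overlap or by unadjusted p are given over all libraries.

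**Figure D1:**
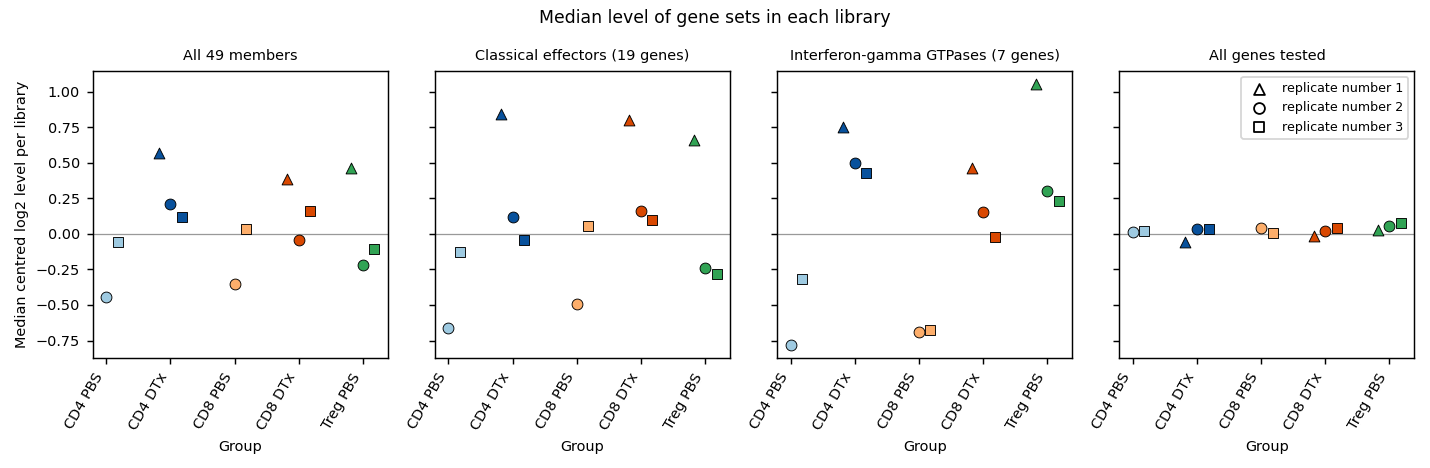
Median centred log2 level in each of the 13 libraries (y axis) by group (x axis) for all 49 members, the 19 classical effectors, the 7 GTPases and all genes tested. Triangles, circles and squares are replicate numbers 1, 2 and 3. The triangles of the classical effectors lie between 0.66 and 0.84, above every other library, while the medians of all genes lie near 0.

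After DTx, 11 of 49 members changed in CD4 Tconv cells, 9 upward and 2 downward, by limma with Benjamini-Hochberg adjusted p under 0.05. That is 22.4%, beside 12.7% of all genes tested, of which 8.64% were called higher and 4.08% lower. The median log2 fold change of the members was 0.52, beside -0.037 over all genes. This median was 0.49 without the libraries numbered 1 and 0.32 with a block for replicate number. It was 0.294 without CD4 PBS replicate 2 and 0.765 without CD4 PBS replicate 3. With the study's further limit of a 4-fold change 2 members were left, beside 6.85% of genes. The members called higher were Oas3, Isg20, Gbp3, Irgm2, Iigp1, Gbp2, Lgals3bp, Igtp and Parp9, and those called lower were Oasl1 and Ifit2. Without the libraries numbered 1 the test called 15 members, 11 upward and 4 downward, beside 12.1% of genes (8.01% higher and 4.14% lower), and these included all 11. Xaf1 and Tap1 were then also called higher and Oas2 and Usp18 lower. In 23 members both CD4 PBS libraries lay below all 3 CD4 DTx libraries and in 5 above them, where 23.4% and 22.9% of all genes did so. The number called fell to 5 without CD4 PBS replicate 2, 6 without CD4 PBS replicate 3, and 7 without CD4 DTx replicate 2 or replicate 3. The share of all genes fell with it, to 6.66%, 5.19%, 9.46% and 10.6%. Only 4 of the 11 calls, those of Oas3, Gbp2, Gbp3 and Irgm2, were kept whichever of the 13 libraries was left out.

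In CD8 T cells, 5 of 49 members changed after DTx, with Isg20, Gbp3, Lgals3bp and Irgm2 higher and Oas2 lower. This share of 10.2% is near the 10.9% of all genes tested, of which 7.4% were called higher and 3.47% lower. The median log2 fold change of the members was 0.36, beside -0.026 over all genes. This median was 0.35 without the libraries numbered 1 and 0.31 with a block for replicate number. It was 0.155 without CD8 PBS replicate 2 and 0.553 without CD8 PBS replicate 3. The 4-fold limit left 1 member, beside 5.46% of genes. Without the libraries numbered 1, 5 members were called beside 9.77% of genes, with Xaf1 in and Lgals3bp out. All 3 CD8 DTx libraries lay above both CD8 PBS libraries in 16 members and below them in 3, where 22.8% and 20.8% of genes did so. The count fell to 1 without CD8 PBS replicate 3 or CD8 DTx replicate 1, to 2 without CD8 PBS replicate 2 and to 3 without CD8 DTx replicate 2. The share of all genes fell to 1.59%, 6.81%, 6.25% and 6.19% in the same order. Gbp3 was the call kept whichever library was left out.

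**Figure D2:**
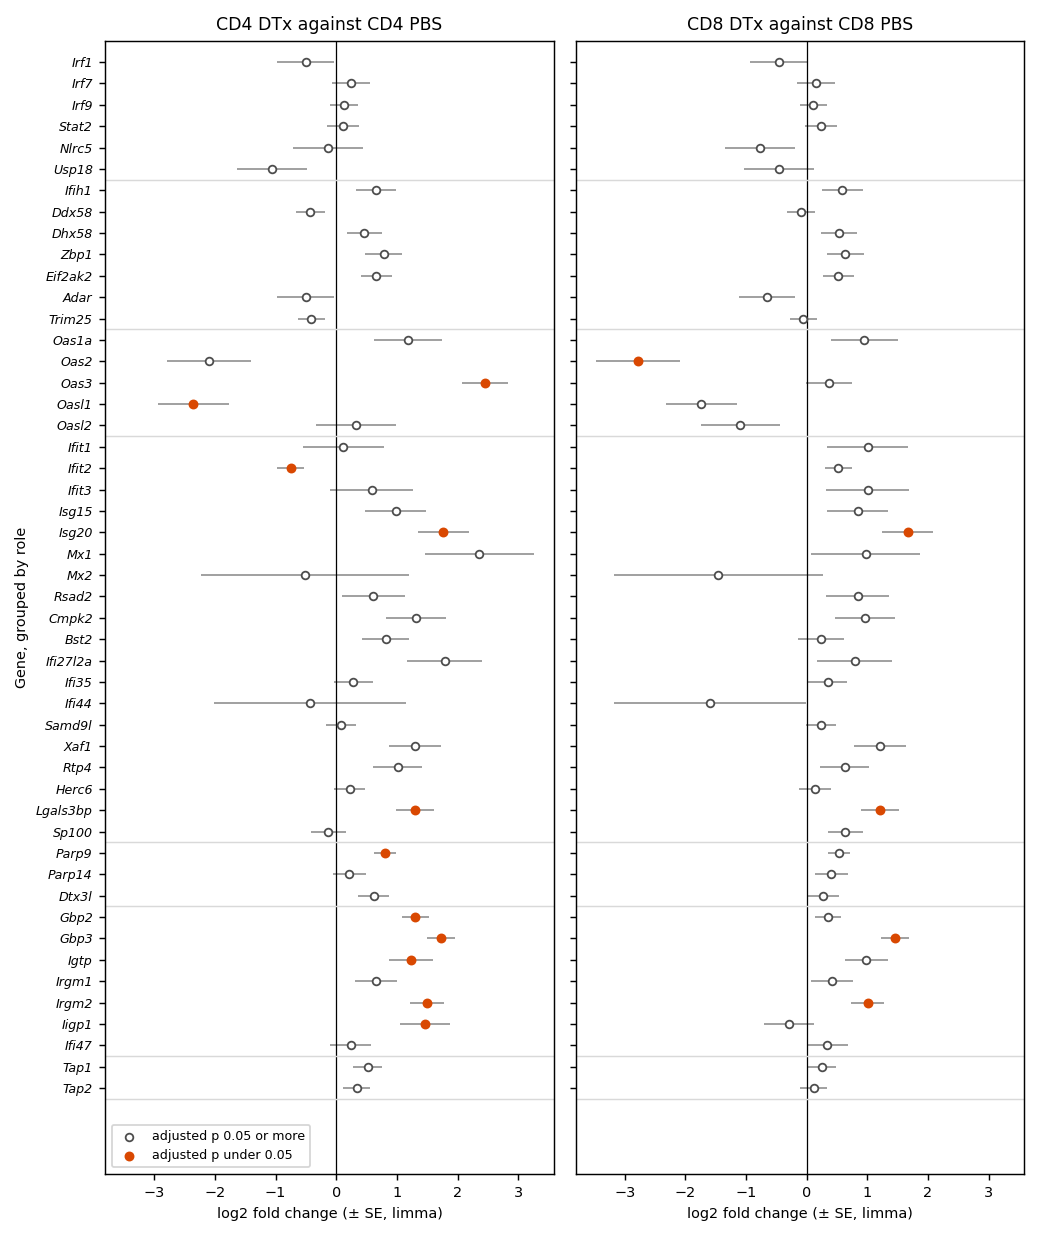
Log2 fold change (x axis, bars are the standard error from limma) of the 49 members (y axis, grouped by role) after DTx in CD4 Tconv cells (left) and CD8 T cells (right). Filled points are the 11 and 5 members with adjusted p under 0.05, and 5 of the 11 filled points on the left are GTPases.

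The DTx effects in CD4 and CD8 cells were compared directly by an interaction term, and none of the 49 members passed, where 0.0474% of all genes did. By unadjusted p under 0.05 there were 4 members, beside 4.05% of all genes. On recovered reads edgeR called none of them, and DESeq2 called Ifit2, beside 0.671% of genes. Without the libraries numbered 1 limma called none of the members, beside 0% of genes. The differences of those 4, as the effect in CD4 minus the effect in CD8 on the log2 scale, were 2.08 ± 0.54 (SE) for Oas3, -1.27 ± 0.32 for Ifit2, 0.95 ± 0.30 for Gbp2 and 1.76 ± 0.58 for Iigp1. Their limma adjusted p-values were 0.363, 0.324, 0.678 and 0.744, so a member called in CD4 and not in CD8 was not shown to differ between them.

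Against CD4 PBS, 11 members differed in Treg cells, 9 higher and 2 lower, which is 22.4% beside 20.4% of all genes (13.5% higher and 6.91% lower). Against CD8 PBS, 9 members differed, 8 higher and 1 lower, or 18.4% beside 18.7% (11.9% higher and 6.75% lower). The shares were thus close to those of all genes. With the 4-fold limit 6 members were left in each, beside 10.2% and 9.41% of genes. All Treg libraries lay above CD4 PBS in 14 members and below in 8, where 29.2% and 27.4% of genes did so, and above CD8 PBS in 15 and below in 7, where 29.7% and 28.2% did so. Median log2 fold changes were 0.18 in each, beside 0.011 and 0.015 over all genes, and turned to -0.027 and -0.034 without the libraries numbered 1. The counts without those libraries were 10, beside 18.3% of genes, and 9, beside 17.1%. The first count fell to 7 without CD4 PBS replicate 2 and 5 without CD4 PBS replicate 3, and the second to 5 without CD8 PBS replicate 2 and 3 without CD8 PBS replicate 3. The shares of all genes were then 10%, 9.39%, 10.4% and 6.02%. The CD4 PBS and CD8 PBS libraries also serve as the controls of the DTx comparisons, so fold changes that share them are given side by side and were not correlated.

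Set directly against Treg cells, CD4 DTx cells differed in 5 members, 3 higher and 2 lower, or 10.2% beside 7.91% of all genes (3.36% higher and 4.55% lower). CD8 DTx cells also differed in 5, 3 higher and 2 lower, beside 8.6% (3.88% higher and 4.71% lower). The 4-fold limit left 1 member, beside 4.01% of genes, and 2 members, beside 4.93%. CD4 DTx lay above Treg cells without overlap in 9 members and below in 5, where 10.2% and 15.2% of genes did so, and CD8 DTx in 5 and 5, where 8.71% and 13.9% did so. Without the libraries numbered 1 the counts were 5, beside 5.13% of genes, and 7, beside 7.37%. The first count fell to 2 without CD4 DTx replicate 1 or 2 or Treg PBS replicate 2 and to 3 without Treg PBS replicate 3, and the second to 3 without CD8 DTx replicate 2. The shares of all genes were then 7.06%, 5.85%, 4.48%, 5.93% and 5.76%.

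**Figure D3:**
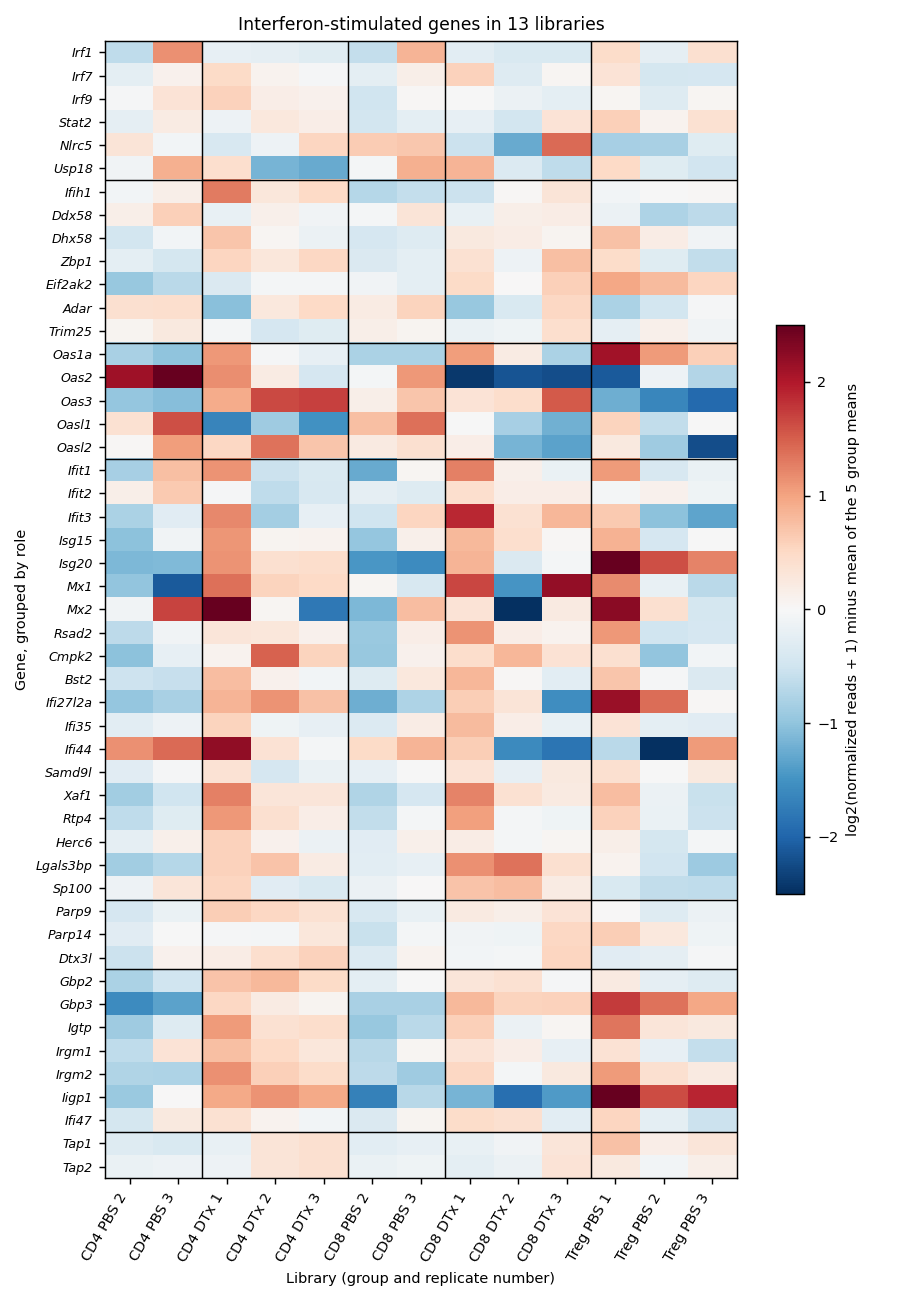
Centred log2 level (colour, limited to 2.5 in either direction) of the 49 members (rows, grouped by role) in the 13 libraries (columns, by group and replicate number). GTPase rows are mostly blue in the PBS Tconv libraries, and replicates numbered 1 are redder than their neighbours in the classical effectors.

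Of the 7 GTPases linked to interferon gamma, 5 rose after DTx in CD4 cells (71.4%, beside 12.7% of all genes) and none fell, with a median log2 fold change of 1.31. In CD8 cells 2 rose (28.6% beside 10.9%, median 0.42). In Treg cells 4 were higher than in CD4 PBS (57.1% beside 20.4%, median 1.23) and 4 than in CD8 PBS (57.1% beside 18.7%, median 1.33). The 4 counts were 5, 2, 4 and 4 again without the libraries numbered 1, with medians of 1.28, 0.31, 0.88 and 1.09. The shares of all genes called were then 12.1%, 9.77%, 18.3% and 17.1%. Against Treg cells, 1 was higher and 1 lower in CD4 DTx and 1 was lower in CD8 DTx. Gbp3, a guanylate-binding protein, was at 667 and 782 normalized reads in CD4 PBS, against 2834, 2294 and 2081 in CD4 DTx. It was at 1126 and 1133 in CD8 PBS, at 3472, 2933 and 2945 in CD8 DTx and at 6651, 5086 and 3873 in Treg PBS. All DTx libraries lay above those of their PBS group, and all Treg libraries lay above all others. The log2 fold changes after DTx were 1.72 ± 0.23 (SE, adjusted p = 0.000552) in CD4 and 1.46 ± 0.23 (adjusted p = 0.00249) in CD8. Treg cells exceeded CD4 PBS by 2.81 ± 0.23 (adjusted p = 1.86e-05) and CD8 PBS by 2.17 ± 0.23 (adjusted p = 9.01e-05), and CD4 DTx cells stayed below Treg cells by a log2 difference of -1.09 ± 0.21 (adjusted p = 0.00732). The corresponding difference of CD8 DTx from Treg cells was -0.71 ± 0.21 and missed the threshold (adjusted p = 0.0565).

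Irgm2 and Igtp, immunity-related GTPases encoded next to each other, showed a like order of groups. Irgm2 stood at 1532 and 1528 in CD4 PBS, 5750.1, 3921 and 3591 in CD4 DTx, 1646 and 1408 in CD8 PBS, 3700.0, 2508 and 3070.2 in CD8 DTx and 5404, 3434 and 3049 in Treg PBS. The 4 PBS Tconv libraries held the 4 lowest values. Its log2 fold change after DTx was 1.5 ± 0.28 in CD4 (adjusted p = 0.00369) and 1.0 ± 0.28 in CD8 (adjusted p = 0.0376), and it was higher in Treg cells by 1.33 ± 0.28 against either PBS group (adjusted p = 0.00552 and 0.00595). The CD8 call was lost without any of CD8 PBS replicates 2 and 3 and CD8 DTx replicate 1 (adjusted p between 0.109 and 0.298) and, narrowly, without CD4 PBS replicates 2 or 3, CD4 DTx replicate 2 or Treg PBS replicate 2 (adjusted p between 0.0509 and 0.0543). The Treg difference from CD8 PBS was lost without CD8 PBS replicate 3 (adjusted p = 0.0786). Igtp was at 6972 and 10342 in CD4 PBS, 27152, 16805 and 17396 in CD4 DTx, 6646 and 8058 in CD8 PBS, 19440.3, 11691 and 13269 in CD8 DTx and 32399.6, 15880.1 and 15376 in Treg PBS. All DTx and Treg libraries lay above the PBS Tconv libraries. It rose in CD4 DTx by 1.23 ± 0.36 (adjusted p = 0.0406) and was higher in Treg cells by 1.23 ± 0.36 against CD4 PBS (adjusted p = 0.0293) and 1.45 ± 0.36 against CD8 PBS (adjusted p = 0.0146), while in CD8 DTx the value of 0.98 ± 0.36 missed the threshold (adjusted p = 0.102). The CD4 DTx call of Igtp was lost in 8 of the 13 fits that left out 1 library, with a log2 fold change down to 0.95 without CD4 PBS replicate 2 (adjusted p = 0.287). Its Treg difference from CD4 PBS was lost without CD4 PBS replicates 2 or 3 or Treg PBS replicate 1 (adjusted p up to 0.227), and that from CD8 PBS without CD8 PBS replicates 2 or 3 (adjusted p up to 0.108). Genes of this family have close copies, so the division of reads between them is uncertain.

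Gbp2, a guanylate-binding protein, and Iigp1, an immunity-related GTPase, were called after DTx in CD4 cells and not in CD8 cells, a difference that the interaction did not establish. Gbp2 was at 2786 and 3371 in CD4 PBS, 7844, 8364 and 6638 in CD4 DTx, 4051 and 4736 in CD8 PBS, 5924, 6266 and 4716 in CD8 DTx and 5627, 4084 and 3815 in Treg PBS. CD4 DTx lay above every other group, without overlap. It rose in CD4 cells by a log2 fold change of 1.31 ± 0.22 (adjusted p = 0.00183), and CD4 DTx cells exceeded Treg cells by 0.77 ± 0.19 (adjusted p = 0.0298). The second call was lost without CD4 DTx replicates 1 or 2 or Treg PBS replicates 2 or 3 (adjusted p up to 0.109). The CD8 value was 0.35 ± 0.22 (adjusted p = 0.316), and the groups overlapped. Iigp1 was at 687 and 1304 in CD4 PBS, 2505, 2847 and 2498 in CD4 DTx, 402 and 808 in CD8 PBS, 584, 352 and 485 in CD8 DTx and 9592, 4043 and 4867 in Treg PBS. Every Treg library exceeded every Tconv library. Treg cells differed by 2.60 ± 0.41 from CD4 PBS (adjusted p = 0.000909) and 3.33 ± 0.41 from CD8 PBS (adjusted p = 0.000223), and CD8 DTx cells lay below Treg cells by -3.63 ± 0.37 (adjusted p = 8.95e-05). The rise in CD4 DTx was 1.46 ± 0.41 (adjusted p = 0.0355), and this call was lost without CD4 PBS replicate 2 (log2 fold change 1.0, adjusted p = 0.305) or any 1 of the CD4 DTx replicates (adjusted p up to 0.0898). In CD8 DTx it was -0.30 ± 0.41 (adjusted p = 0.665). The remaining GTPases, Irgm1 and Ifi47, were called in no comparison, with log2 fold changes after DTx between 0.24 and 0.66.

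**Figure D4:**
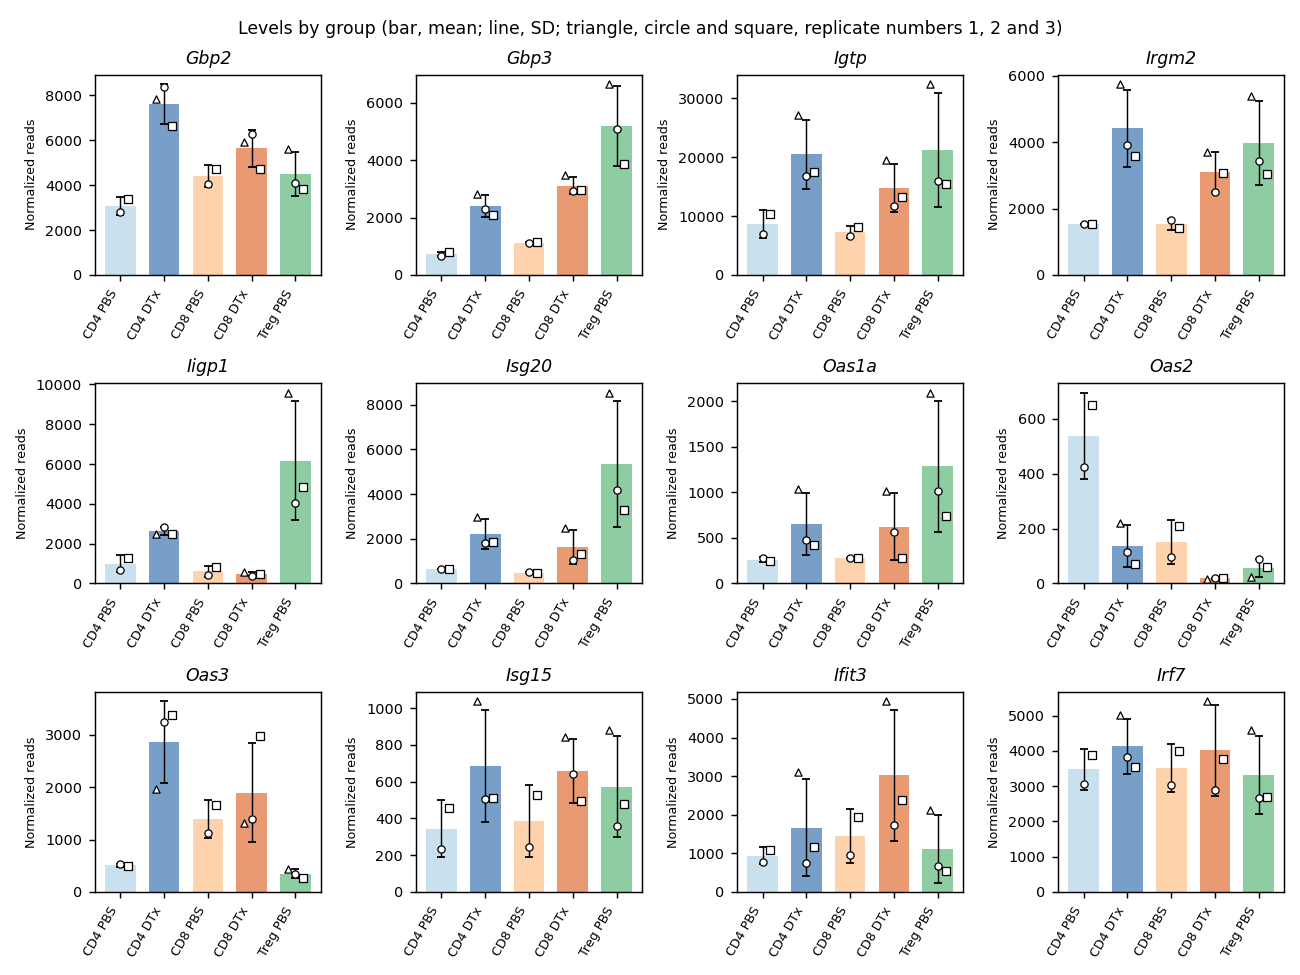
Normalized reads (y axis, from 0) of 12 members by group (x axis). Bars are means, lines are SDs, and triangles, circles and squares are replicate numbers 1, 2 and 3 (n = 2 for CD4 PBS and CD8 PBS, n = 3 for the others). Gbp3, Iigp1 and Isg20 are highest in Treg PBS, Oas3 in CD4 DTx and Oas2 in CD4 PBS, while Ifit3 and Irf7 overlap between groups.

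Members of the OAS family, which encode 2′-5′ oligoadenylate synthetases and their relatives and respond to double-stranded RNA, did not move together. Oas3 was at 529 and 489 in CD4 PBS and 1954, 3246 and 3365 in CD4 DTx, 1132 and 1653 in CD8 PBS and 1310.0, 1395 and 2975 in CD8 DTx, and 439, 334 and 265 in Treg PBS. CD4 DTx cells thus lay above CD4 PBS and Treg cells without overlap. Oas3 rose after DTx in CD4 by 2.45 ± 0.38 (adjusted p = 0.00122), the largest log2 fold change among the members called there, and the CD8 value was 0.36 ± 0.38 (adjusted p = 0.563). It was lower in Treg cells than in CD8 PBS by a log2 difference of -2.01 ± 0.38 (adjusted p = 0.00342), a call lost without CD8 PBS replicate 3 (adjusted p = 0.0616). CD4 DTx and CD8 DTx cells exceeded Treg cells by 3.03 ± 0.34 (adjusted p = 0.000348) and 2.37 ± 0.34 (adjusted p = 0.000924).

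Oas2, which lies beside Oas3 on chromosome 5, went the other way. It was at 426 and 649.9 in CD4 PBS, 221, 113 and 72.4 in CD4 DTx, 94.8 and 208 in CD8 PBS, 17.6, 21.2 and 20.2 in CD8 DTx and 22.0, 89.9 and 58.9 in Treg PBS. All DTx libraries lay below those of their PBS group. It fell in CD8 DTx, with a log2 fold change of -2.78 ± 0.69 (adjusted p = 0.0238), and the CD4 value was -2.10 ± 0.69 (adjusted p = 0.0673). It was lower in Treg cells than in CD4 PBS by -3.40 ± 0.69 (adjusted p = 0.00466). The CD8 call was lost without CD8 PBS replicate 3 (adjusted p = 0.281) or CD8 DTx replicates 1 or 2 (adjusted p = 0.0637 and 0.0566), and the Treg call without CD4 PBS replicate 3 (adjusted p = 0.0606). Oas1a had yet another pattern, at 280.1 and 244 in CD4 PBS, 1041, 479.5 and 424 in CD4 DTx, 281 and 284 in CD8 PBS, 1017, 566 and 284 in CD8 DTx and 2093, 1018 and 738 in Treg PBS. It was higher in Treg cells by 2.15 ± 0.56 against CD4 PBS (adjusted p = 0.0176) and 2.04 ± 0.56 against CD8 PBS (adjusted p = 0.0244). These calls were lost without either PBS control replicate or without Treg PBS replicate 1 (adjusted p between 0.0684 and 0.14), and the second also without Treg PBS replicate 2 (adjusted p = 0.0511). After DTx the values of Oas1a were 1.19 ± 0.56 in CD4 (adjusted p = 0.202) and 0.95 ± 0.56 in CD8 (adjusted p = 0.297). Near-identical copies of Oas1a exist in the mouse genome, and its reads are uncertain for that reason.

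The OAS-like genes lie side by side on chromosome 5. Oasl1, known to restrain translation of Irf7, was at 156 and 367 in CD4 PBS, 37.4, 63.4 and 40.8 in CD4 DTx, 200.5 and 309 in CD8 PBS, 118, 66.5 and 51.1 in CD8 DTx and 174, 76.9 and 118 in Treg PBS. Both DTx groups lay below their PBS groups. The log2 fold change was -2.36 ± 0.59 in CD4 (adjusted p = 0.0201) and -1.74 ± 0.59 in CD8 (adjusted p = 0.0800). The CD4 call was lost without CD4 PBS replicate 3 (-1.74, adjusted p = 0.244) and narrowly without CD4 DTx replicate 3 (adjusted p = 0.0507). Oasl2 was at 383 and 778 in CD4 PBS, 539, 965 and 609.7 in CD4 DTx, 439 and 496 in CD8 PBS, 422, 167 and 147 in CD8 DTx and 446, 203 and 80.1 in Treg PBS. It was called in no comparison by limma over all libraries without a replicate block. Without the libraries numbered 1 it was called lower in Treg cells than in CD4 PBS, CD8 PBS and CD4 DTx.

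Of the 19 classical effectors, 2 rose and 1 fell in CD4 DTx (15.8% beside 12.7% of all genes) and 2 rose in CD8 DTx (10.5% beside 10.9%), shares near those of all genes. In Treg cells 2 were higher than in each PBS Tconv group (10.5%, beside 20.4% and 18.7%), a share below that of all genes. Without the libraries numbered 1 there were 4 in CD4 DTx, 2 in CD8 DTx and 1 in each Treg comparison. The shares of all genes called were then 12.1%, 9.77%, 18.3% and 17.1%. Isg20, an exonuclease that degrades viral RNA, was the one higher in every comparison of this kind. It was at 634 and 637 in CD4 PBS, 2997, 1809 and 1863 in CD4 DTx, 501 and 459 in CD8 PBS, 2479.6, 1066 and 1326 in CD8 DTx and 8547, 4190.2 and 3268 in Treg PBS. All PBS Tconv libraries lay below all DTx libraries, and all Treg libraries above them, while the CD4 DTx and CD8 DTx ranges overlapped. The log2 fold change after DTx was 1.76 ± 0.42 in CD4 (adjusted p = 0.0151) and 1.66 ± 0.42 in CD8 (adjusted p = 0.0251). Treg cells exceeded CD4 PBS by 2.94 ± 0.42 (adjusted p = 0.000469) and CD8 PBS by 3.35 ± 0.42 (adjusted p = 0.000237), and CD8 DTx cells stayed below Treg cells by -1.69 ± 0.37 (adjusted p = 0.0141). The CD4 call was lost without either CD4 PBS replicate (adjusted p up to 0.102), the CD8 call without either CD8 PBS replicate or CD8 DTx replicate 1 (adjusted p up to 0.206), and the last without CD8 DTx replicate 2 or Treg PBS replicate 1 (adjusted p = 0.0681 and 0.0518).

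Lgals3bp, a secreted glycoprotein that binds galectins, was at 3956 and 4397 in CD4 PBS, 10758, 11927 and 8342 in CD4 DTx, 6021 and 6281 in CD8 PBS, 15964, 18464 and 9610.5 in CD8 DTx and 7714, 5204 and 3833 in Treg PBS. The DTx libraries of both cell types lay above all PBS libraries, Treg cells included. It rose by 1.29 ± 0.31 in CD4 (adjusted p = 0.0176) and 1.20 ± 0.31 in CD8 (adjusted p = 0.0303), and CD8 DTx cells exceeded Treg cells by 1.40 ± 0.28 (adjusted p = 0.00825). The CD4 call was lost without CD4 PBS replicates 2 or 3 or CD4 DTx replicate 2 (adjusted p up to 0.125). The CD8 call was lost without either CD8 PBS replicate or CD8 DTx replicates 1 or 2 (adjusted p up to 0.2) and without all libraries numbered 1 (adjusted p = 0.0611). Sp100, a nuclear body protein, was at 19573 and 26216 in CD4 PBS, 30710.3, 17573 and 16326 in CD4 DTx, 19080.5 and 21465 in CD8 PBS, 34666, 36452 and 24499 in CD8 DTx and 16298, 13906 and 13651 in Treg PBS. Every Tconv library lay above the highest Treg library. CD8 DTx cells exceeded Treg cells by 1.11 ± 0.26 (adjusted p = 0.0186), a call lost without CD8 DTx replicates 1 or 2 or Treg PBS replicates 2 or 3 (adjusted p up to 0.0746). Ifi27l2a was at 1408 and 1583 in CD4 PBS, 4966, 6012 and 4587 in CD4 DTx, 1183 and 1624 in CD8 PBS, 4245, 3481 and 939.5 in CD8 DTx and 12298, 7239 and 2826 in Treg PBS. Treg libraries lay above both PBS Tconv groups, by the least in replicate 3. It was higher in Treg cells by 2.08 ± 0.62 against CD4 PBS (adjusted p = 0.0330) and 2.19 ± 0.62 against CD8 PBS (adjusted p = 0.0282). Both calls were lost without either of the PBS control replicates or without Treg PBS replicates 1 or 2 (adjusted p up to 0.163), and without all libraries numbered 1 (1.60, adjusted p = 0.102, and 1.71, adjusted p = 0.0848).

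Ifit2, whose protein binds viral RNA, was the effector that fell in CD4 DTx. It was at 1869 and 2672 in CD4 PBS, 1665, 1095 and 1280.0 in CD4 DTx, 1459 and 1350.3 in CD8 PBS, 2257, 1909 and 1899 in CD8 DTx and 1633, 1822 and 1567 in Treg PBS. CD4 DTx lay below CD4 PBS and CD8 DTx above CD8 PBS, both without overlap. The log2 fold change was -0.75 ± 0.22 in CD4 (adjusted p = 0.0459) and 0.52 ± 0.22 in CD8 (adjusted p = 0.163). The CD4 call was lost in 11 of the 13 fits without 1 library, all but those without CD4 DTx replicate 1 or CD8 DTx replicate 3, with adjusted p up to 0.407 without CD4 PBS replicate 3. It was kept without all libraries numbered 1 (-0.92, adjusted p = 0.0259). Neighbouring Ifit3 did not follow it, at 780.3 and 1099 in CD4 PBS, 3102, 741 and 1160.2 in CD4 DTx, 954 and 1954 in CD8 PBS, 4943, 1745 and 2377 in CD8 DTx and 2130.4, 664 and 539 in Treg PBS. Replicate 1 was the highest library in each group that had one. The log2 fold changes of Ifit3 after DTx were 0.58 ± 0.68 (adjusted p = 0.619) and 1.0 ± 0.68 (adjusted p = 0.364), and Ifit3 has a near-identical copy that can share its reads.

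Isg15, a ubiquitin-like modifier and a standard readout of interferon signalling, was not called in any comparison. It was at 235 and 455 in CD4 PBS, 1038, 505 and 514 in CD4 DTx, 247 and 525 in CD8 PBS, 842, 642 and 495 in CD8 DTx and 881, 359.7 and 477 in Treg PBS. All CD4 DTx libraries lay above CD4 PBS (log2 fold change 0.98 ± 0.50, adjusted p = 0.235), whereas the CD8 groups overlapped (0.84 ± 0.50, adjusted p = 0.302). Mx1, an antiviral GTPase, was at 178 and 81.9 in CD4 PBS, 922, 521 and 499 in CD4 DTx, 368 and 267 in CD8 PBS, 1127, 127 and 1615 in CD8 DTx and 798, 312 and 222 in Treg PBS. All CD4 DTx libraries lay above CD4 PBS, with a large error (2.35 ± 0.90, adjusted p = 0.113), and in CD8 DTx replicate 2 was the lowest library and replicate 3 the highest (0.97 ± 0.90, adjusted p = 0.509). Bst2, which tethers budding virus particles, was at 1141 and 1098 in CD4 PBS, 2781, 1767 and 1551 in CD4 DTx, 1307 and 1947 in CD8 PBS, 2907, 1669 and 1358 in CD8 DTx and 2626, 1594 and 1266 in Treg PBS. CD4 DTx lay above CD4 PBS without overlap (0.81 ± 0.38, adjusted p = 0.200), and the CD8 groups overlapped (0.23 ± 0.38, adjusted p = 0.721). Over the 16 effectors not called in CD4 DTx, log2 fold changes ran from -0.51 to 2.36, and over the 17 not called in CD8 DTx from -1.60 to 1.21. Xaf1, which acts in cell death, came closest among those not called, and is named here after its values were seen. It was at 795 and 1032 in CD4 PBS, 3486, 1785 and 1775 in CD4 DTx, 863 and 1077 in CD8 PBS, 3430.2, 1896 and 1692 in CD8 DTx and 2466, 1314 and 989 in Treg PBS. Both DTx groups lay above their PBS groups without overlap (1.30 ± 0.42, adjusted p = 0.0659, and 1.21 ± 0.42, adjusted p = 0.0902). Mx2 and Ifi44 had low levels with a library at 0 and standard errors of 1.72 and 1.58 in the DTx comparisons.

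Of the 6 transcription factors and regulators, none passed limma's adjusted threshold in the fit over all libraries without a replicate block. By unadjusted p under 0.05 there were 0 after DTx in either cell type, beside 26.3% of all genes in each, and 2 in Treg cells against CD8 PBS, beside 33.8%. Irf7, which amplifies type I interferon production, was at 3061 and 3882 in CD4 PBS, 5018, 3831 and 3539.8 in CD4 DTx, 3036 and 4006 in CD8 PBS, 5407, 2884 and 3754 in CD8 DTx and 4589, 2659.5 and 2702 in Treg PBS. The groups overlapped, with log2 fold changes after DTx of 0.24 ± 0.31 in CD4 and 0.15 ± 0.31 in CD8. Irf9, the DNA-binding partner of STAT2, was at 5074 and 6491 in CD4 PBS, 7686, 5775 and 5561 in CD4 DTx, 3620.5 and 5275 in CD8 PBS, 5117, 4652 and 4374 in CD8 DTx and 5289, 4125 and 5325 in Treg PBS. It too overlapped after DTx (0.13 ± 0.22 and 0.11 ± 0.22). Stat2 was at 1707 and 2322 in CD4 PBS, 1832, 2420.2 and 2251 in CD4 DTx, 1459 and 1698 in CD8 PBS, 1746, 1447 and 2525 in CD8 DTx and 3046, 2133 and 2618 in Treg PBS. Treg cells lay above CD8 PBS without overlap, by 0.71 ± 0.26, which missed the threshold (adjusted p = 0.0788).

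Irf1, induced by interferon gamma, differed widely between the replicates of the PBS groups. It was at 10133 and 34596 in CD4 PBS and 10344 and 28220.1 in CD8 PBS, against 13524, 13354 and 12769.9 in CD4 DTx cells, 13118, 12019.9 and 12053 in the CD8 DTx libraries and 21430.1, 13458 and 20687 in Treg PBS. Replicate 3 was the high library in both PBS Tconv groups, and in the same libraries red cell markers (hemoglobin chains and others) summed to 6567 and 6570.2, against 3216 or less in the other 11. The part of this in the Irf1 values was not tested, and the DTx groups fell between the PBS replicates (log2 fold changes of -0.50 ± 0.47 and -0.46 ± 0.47). Usp18, which shuts down signalling at IFNAR2, was at 1089 and 2135 in CD4 PBS, 1543, 519 and 481 in CD4 DTx, 1119 and 2135 in CD8 PBS, 2076, 912 and 746 in CD8 DTx and 1644, 935 and 832 in Treg PBS. Its value in CD4 DTx was -1.07 ± 0.58 (adjusted p = 0.267), and it was called lower there without the libraries numbered 1. Nlrc5, the transactivator of MHC class I genes, was at 5981 and 4623 in CD4 PBS, 3639, 4395 and 6941 in CD4 DTx, 7465 and 7659 in CD8 PBS, 3313, 2020.5 and 12938 in CD8 DTx and 2697, 2737 and 3893 in Treg PBS. Treg cells lay below both PBS Tconv groups without overlap, by -0.78 ± 0.58 (adjusted p = 0.355) and -1.30 ± 0.58 (adjusted p = 0.134).

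Of the 7 sensors of nucleic acid and their regulators, none was called after DTx in either cell type by limma without a replicate block, over all libraries or without those numbered 1. By unadjusted p under 0.05 there were 2 in CD4 (28.6%, beside 26.3% of all genes) and 0 in CD8 (beside 26.3%). Zbp1, a sensor of Z-form nucleic acid, was at 3013 and 2625 in CD4 PBS, 5157, 4301 and 5107 in CD4 DTx, 2775 and 3009.8 in CD8 PBS, 4633, 3265 and 5991 in CD8 DTx and 4903, 2859.9 and 2321 in Treg PBS. Both DTx groups lay above their PBS groups (0.78 ± 0.31, adjusted p = 0.122, and 0.64 ± 0.31, adjusted p = 0.209). Ifih1, the RNA sensor MDA5, was at 536 and 625 in CD4 PBS, 1381, 686 and 798 in CD4 DTx, 344 and 373 in CD8 PBS, 388, 574 and 704 in CD8 DTx and 538, 563 and 572 in Treg PBS. It also showed no overlap after DTx (0.65 ± 0.33, adjusted p = 0.236, and 0.59 ± 0.33, adjusted p = 0.281). Eif2ak2, the RNA-activated kinase PKR, was at 338 and 411 in CD4 PBS, 511, 636 and 633 in CD4 DTx, 618 and 552 in CD8 PBS, 910.0, 657 and 992 in CD8 DTx and 1276, 1128 and 950.0 in Treg PBS. It was higher in Treg cells by 1.57 ± 0.26 against CD4 PBS (adjusted p = 0.00117) and 0.92 ± 0.26 against CD8 PBS (adjusted p = 0.0266), and lower in CD4 DTx than in Treg cells by -0.91 ± 0.23 (adjusted p = 0.0320). The second call was lost without CD8 PBS replicates 2 or 3 or Treg PBS replicates 1 or 2 (adjusted p up to 0.196), and the third without any of the CD4 DTx replicates or Treg PBS replicates 1 or 2 (adjusted p up to 0.113). Without all libraries numbered 1 both were lost as well (adjusted p = 0.066 and 0.178). Ddx58, the RNA sensor RIG-I, was at 4081 and 5564 in CD4 PBS, 3228, 4011 and 3454 in CD4 DTx, 3548 and 4613 in CD8 PBS, 3232, 4052 and 4169 in CD8 DTx and 3313, 2141 and 2341 in Treg PBS. It was lower in Treg cells than in CD4 PBS by -0.90 ± 0.24 (adjusted p = 0.0182), a call lost without CD4 PBS replicate 3 (adjusted p = 0.189) or Treg PBS replicate 2 (adjusted p = 0.0644).

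Parp9 and Dtx3l encode partners in a ubiquitin ligase complex and lie side by side on chromosome 16, followed by Parp14. Parp9 was at 2839.7 and 3404 in CD4 PBS, 5876, 5445 and 4982 in CD4 DTx, 2878 and 3358 in CD8 PBS, 4449, 4210.5 and 4821 in CD8 DTx and 3856, 3033 and 3469 in Treg PBS. Both DTx groups lay above all PBS libraries. It rose in CD4 DTx by 0.80 ± 0.18 (adjusted p = 0.0103) and exceeded Treg cells there by 0.66 ± 0.16 (adjusted p = 0.0243), while the CD8 value was 0.53 ± 0.18 (adjusted p = 0.0760). The first call was lost without CD4 PBS replicate 2 (adjusted p = 0.124), and the second without CD4 DTx replicates 1 or 2 or Treg PBS replicates 2 or 3 (adjusted p up to 0.101) and without all libraries numbered 1 (adjusted p = 0.0699). For Dtx3l the CD4 DTx value was 0.61 ± 0.25 (adjusted p = 0.142), and for Parp14 it was 0.22 ± 0.27 (adjusted p = 0.643). Tap1, a subunit of the peptide transporter that loads MHC class I, was at 11809.9 and 11352 in CD4 PBS, 12904, 18391 and 19328 in CD4 DTx, 12288 and 12682 in CD8 PBS, 12876, 13852 and 18180.4 in CD8 DTx and 24324, 16491 and 18068 in Treg PBS. Replicate 1 was the lowest DTx library here, unlike in most members. Tap1 was higher in Treg cells than in CD4 PBS by 0.74 ± 0.24 (adjusted p = 0.0479), and this call was lost in 11 of the 13 fits without 1 library, all but those without CD4 DTx replicate 1 or CD8 DTx replicate 3 (adjusted p up to 0.203), and without all libraries numbered 1 (0.58, adjusted p = 0.0736). Tap2, the other subunit, was called in no comparison.

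Genes of the interferon pathway outside the 49 were examined from a separate list of 63, of which 55 were tested. After DTx 12 were higher and 2 lower in CD4 cells (25.5% called, beside 12.7% of all genes), and 7 were higher and 1 lower in CD8 cells (14.5% beside 10.9%). In Treg cells 14 were higher and 8 lower than in CD4 PBS (40% beside 20.4%), and 10 higher and 5 lower than in CD8 PBS (27.3% beside 18.7%). Against Treg cells, 5 were higher and 3 lower in CD4 DTx (14.5% beside 7.91%), and 6 higher and 5 lower in CD8 DTx (20% beside 8.6%). The numbers called in these comparisons without the libraries numbered 1 were 13, 8, 18, 15, 9 and 11. The shares of all genes were then 12.1%, 9.77%, 18.3%, 17.1%, 5.13% and 7.37%. Ifng, the ligand itself, was at 297 and 479 in CD4 PBS, 2212, 1085 and 1638 in CD4 DTx, 758 and 681 in CD8 PBS, 9423, 2672 and 3401 in CD8 DTx and 568, 291 and 977 in Treg PBS. It rose by 2.06 ± 0.56 in CD4 (adjusted p = 0.0307) and 2.62 ± 0.56 in CD8 (adjusted p = 0.0116), and CD8 DTx cells exceeded Treg cells by 3.01 ± 0.50 (adjusted p = 0.00253). Without the libraries numbered 1 the log2 fold change in CD4 was 1.82 and was no longer called. The CD8 values, 2.07 after DTx and 2.5 against Treg cells, were still called. Ifngr1, the ligand-binding chain of its receptor, was at 13853 and 9673 in CD4 PBS, 55849, 33771 and 42259 in CD4 DTx, 20807 and 11713 in CD8 PBS, 55011, 40486 and 39494 in CD8 DTx and 78556, 47616 and 55024 in Treg PBS. It rose by 1.89 ± 0.33 in CD4 (adjusted p = 0.00267) and 1.51 ± 0.33 in CD8 (adjusted p = 0.0131), and was higher in Treg cells by 2.35 ± 0.33 and 1.92 ± 0.33 (adjusted p = 0.000463 and 0.00205).

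The second receptor chain did not follow. Ifngr2 was at 1692 and 2499 in CD4 PBS, 110.3, 992 and 481 in CD4 DTx, 645 and 1413 in CD8 PBS, 19.4, 47.2 and 12.1 in CD8 DTx and 271, 318 and 526 in Treg PBS. It fell in CD8 DTx, with a log2 fold change of -5.35 ± 0.80 (adjusted p = 0.00186), and the CD4 value was -2.45 ± 0.80 (adjusted p = 0.0666). Ifnar1, a chain of the type I receptor, was called in no comparison, with log2 fold changes after DTx of -0.074 ± 0.27 for CD4 and -0.15 ± 0.27 for CD8. Its partner Ifnar2 fell in CD4 DTx by 0.86 on the log2 scale (adjusted p = 0.00744). Neither receptor chain nor ligand is among the 49.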

How the data were processed

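Transcript levels of 49 interferon-stimulated genes were taken from 1 table of 13 libraries of T cells sorted from tumors. Per the labels and methods, the authors made SMART-type low-input libraries (the labels name SmartSeq2), trimmed reads with cutadapt, aligned them to NCBIM37 (mm9) with hisat2, and deposited a signal per gene from uniquely mapped reads, scaled to library size with a correction for intergenic reads. Each of those values was a whole multiple of what 1 read is worth (100% within 0.01), between 0.661 and 1.37 normalized reads, so read counts could be recovered (edgeR on them called 1395 genes after DTx in CD4 cells and 1148 in CD8 cells), and 3 reads came to 1.98 to 4.10 normalized reads. The strand setting is not given in the sources used here, nor is the counter, so overlapping genes and near-identical copies are uncertain. The labels mention no molecular identifiers, and floors cover counting error only. As deposited, 21 symbols read as dates.

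The 12667 genes reaching 10 normalized reads in 2 or more libraries were fitted as log2(value + 1) with limma 3.58.1 (mean trend) in R 4.3.3, with 1 mean per group over all libraries and Benjamini-Hochberg adjustment over all genes, and were called at adjusted p under 0.05. This scale understates changes of low genes. The study's 4-fold limit, pseudocounts, filters, TMM scaling, edgeR 4.0.16 and DESeq2 1.42.0 on recovered reads, a replicate block and the omission of each library were alternatives, and leaving out the libraries numbered 1 was added after seeing the data. The fit was also run on simulated libraries that held no effect of replicate number, so that run does not bear on such effects. In each comparison the 5 called members with the largest fold change per direction are described, together with 18 representatives. The members and lists were chosen with earlier results of these data known. The pathway list is given by its counts, with the ligand, receptor chains and some GTPases as examples.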

Additional observations from a re-analysis of the deposited data

How the results depend on the processing

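None of the called members changed direction in an alternative: of 1104 repeats of those calls, 959 kept the call and 145 lost it. Where only the groups compared were fitted, or a library of another group was left out, the fold change could not alter. The direction was fixed in those repeats. Members not called were not followed in this tally. In what follows the share of all genes called stands in parentheses, except for the omission of 1 library. Requiring a 4-fold change left 2 members in CD4 DTx (6.85%), 1 in CD8 DTx (5.46%) and 6 in Treg PBS against CD4 PBS (10.2%). It left 1 in CD4 DTx against Treg PBS (4.01%) and 2 in CD8 DTx against Treg PBS (4.93%). DESeq2 called 9 in CD8 DTx (16.3%), 8 in CD4 DTx against Treg PBS (12.2%) and 1, Ifit2, for the difference between the DTx effects (0.671%). Fitting only the groups compared gave 1 in CD8 DTx (1.89%), 7 in Treg PBS against CD4 PBS (18.4%), 1 in CD4 DTx against Treg PBS (5.05%) and 3 in CD8 DTx against Treg PBS (6.58%). Leaving out 1 library gave 5 to 12 members in CD4 DTx, 1 to 6 in CD8 DTx, 0 for the difference between the DTx effects, 5 to 11 and 3 to 11 in Treg PBS against CD4 PBS and CD8 PBS, and 2 to 6 and 3 to 6 in CD4 DTx and CD8 DTx against Treg PBS. Where that left an arm with 1 library, its spread was taken from the other groups. The share of all genes moved as well, as given above where counts fell. It rose to 15.1% in CD4 DTx and 19.7% in CD8 DTx without CD8 DTx replicate 3. No source used here ties a replicate number to a day. Correlations of same-numbered libraries over all genes ran from -0.31 to 0.59. The study states no covariate, and the main fit used none. Each 2 groups compared held at least 1 same-numbered pair under 0.1. However, numbers 1 and 3 gave 0.25 and 0.21 for CD4 DTx and Treg PBS, and 0.24 and 0.30 for CD8 DTx and Treg PBS. These correlations therefore do not settle whether the numbers are pairs. Between CD4 DTx and CD8 DTx, which were not compared directly, all 3 were above 0.1 (0.36, 0.21 and 0.59). Over the members alone the correlations ran from -0.46 to 0.80. For number 1 they were 0.80 (CD8 DTx and Treg PBS), 0.72 (CD4 DTx and CD8 DTx) and 0.40 (CD4 DTx and Treg PBS). For numbers 2 and 3 in these groups they lay between -0.027 and 0.25. CD4 PBS and CD8 PBS gave 0.78, which is a single value for both numbers, because the deviations of 2 libraries from their mean mirror each other. Sex-linked genes also followed the number, in every group. Whether it marks a shared block was not tested, and counts with a block follow. With the replicate block, 15 members were called in CD4 DTx (16%), 7 in CD8 DTx (14.9%), 0 for the difference (0.0711%), 12 and 11 in Treg PBS against CD4 PBS (25.3%) and CD8 PBS (23.5%), 12 in CD4 DTx against Treg PBS (13.7%) and 9 in CD8 DTx against Treg PBS (12.5%), all called members included. Among those added were Usp18, lower in CD4 DTx, Stat2, higher in Treg PBS than in CD8 PBS, and Oasl2, higher in CD4 DTx than in Treg PBS. The block without the libraries numbered 1 gave 8 in CD8 DTx (12.8%), Ifih1 among them. Group sizes of 2 and 3 limit the precision.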
